A study of Mus musculus with 45 samples.

Results

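The genes described here are 10 that are commonly used to read the response of mouse cells to low oxygen and their use of glycolysis: the glucose transporters Slc2a1 and Slc2a3, the glycolytic enzymes Hk2, Pgk1 and Ldha, the kinase Pdk1, and Bnip3, Ankrd37, Egln3 and Vegfa. They were taken by gene symbol, and all 10 were found among the 18193 genes with a value, through 22 of 45037 probe sets. For each gene the probe set with the highest mean over all arrays was used, and the others served as a check.

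The study followed murine embryonic stem cells (ESCs) of strain 129, labelled male, as they formed embryoid bodies (EBs), the aggregates grown from hanging drops in which cells of the germ layers arise. The WT line is labelled wild type, the SCR line is labelled as carrying a scrambled control, and the KD line is labelled as silenced for Strip2, a gene for a component of the STRIPAK phosphatase and kinase complexes. Arrays were run on undifferentiated cells and on EBs at days 4, 8, 12 and 16 of every line, 3 to a group and 45 in all. The labels do not say whether a line is a clone or a pool, and each label stands for a single line, so a label and its line cannot be told apart.

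When oxygen is scarce, the hydroxylases that mark the HIF alpha proteins for destruction through VHL lose activity, and HIF binds DNA with its partner ARNT at short elements near its target genes. Among the targets are transporters and enzymes that raise the uptake of glucose and its conversion to lactate, and the kinase PDK1, which holds pyruvate back from the mitochondria. Naive mouse ESCs are also known for active glycolysis while they are undifferentiated, and the hanging drop culture gives aggregates whose oxygen supply was not recorded in the labels.

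The 250 bases before the start of 4 genes are shown because these 4 were higher in KD-labelled than in SCR EBs on every one of the 4 days. They are RefSeq sequences of GRCm38.p6, written from 5′ to 3′ on the strand of the gene, and capitals mark each match to ACGTG or GCGTG, the core of the element that HIF recognises, on either strand. The windows are chr2:71872974-71873223 (plus strand) for Pdk1, chr7:138909507-138909756 (minus strand) for Bnip3, chrX:106186850-106187099 (plus strand) for Pgk1 and chr6:82774455-82774704 (minus strand) for Hk2.
Pdk1: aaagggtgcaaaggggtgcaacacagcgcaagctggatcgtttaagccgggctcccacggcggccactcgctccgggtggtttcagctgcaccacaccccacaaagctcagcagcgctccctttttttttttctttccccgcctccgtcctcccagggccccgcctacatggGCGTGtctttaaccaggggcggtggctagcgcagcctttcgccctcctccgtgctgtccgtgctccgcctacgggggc
Bnip3: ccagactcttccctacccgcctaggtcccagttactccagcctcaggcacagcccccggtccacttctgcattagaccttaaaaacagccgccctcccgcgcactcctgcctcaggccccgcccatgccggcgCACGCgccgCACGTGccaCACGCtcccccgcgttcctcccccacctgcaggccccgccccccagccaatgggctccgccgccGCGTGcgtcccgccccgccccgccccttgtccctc
Pgk1: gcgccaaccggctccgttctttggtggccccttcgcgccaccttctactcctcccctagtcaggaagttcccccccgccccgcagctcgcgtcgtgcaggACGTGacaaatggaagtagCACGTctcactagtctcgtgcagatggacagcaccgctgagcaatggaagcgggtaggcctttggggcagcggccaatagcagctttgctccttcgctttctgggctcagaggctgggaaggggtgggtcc
Hk2: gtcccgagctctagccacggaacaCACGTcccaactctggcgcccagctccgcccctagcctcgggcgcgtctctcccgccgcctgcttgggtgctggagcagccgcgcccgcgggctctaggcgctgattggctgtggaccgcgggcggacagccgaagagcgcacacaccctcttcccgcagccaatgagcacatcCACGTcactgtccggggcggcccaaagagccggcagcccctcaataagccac
The Pdk1 window held 1 match, that of Bnip3 5, that of Pgk1 2 and that of Hk2 2. RefSeq lists a second start for Pdk1, whose window (chr2:71874654-71874903) held 0 matches and is not printed. In Bnip3 an ACGTG on each strand overlaps in CACGTG, so this palindrome counted once on each strand. A window was listed for 9 of the 10 genes, and each of the 9 had a match in at least 1 window, against 41.5% of 27025 genes. At least 2 matches in a window were found in 7 of the 9, against 18.7% of genes. Vegfa enters both counts through its window chr17:46025164-46025413, which held 2 matches. Its other window, chr17:46032378-46032627, lies further upstream on the minus strand and held 0. Both Vegfa matches therefore lie past the start that this other window precedes. With that start alone, Vegfa would leave both counts. By window, 10 of the 12 had a match, against 38.6% of all windows. The windows of the 9 genes were also richer in G and C, with a median of 63.4% against 52.4% over all windows of this length, and the part of that in these shares was not tested. A match describes the letters of the window and was not tested as a binding site.

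Strip2 was read first as a check of the labels. Its level lay near the low end of the scale in all groups, with group means between 2.57 and 4.85. In the KD-labelled line it differed from SCR by -0.13 in ESCs, 0.46 at day 4, 0.04 at day 8, -0.92 at day 12 and -1.56 at day 16, each ± 0.19 (SE; limma, adjusted p = 0.71, 0.052, 0.88, 1e-04 and 8.6e-09). At the days with the 2 lower calls SCR was itself above WT, by 1.55 at day 12 and 1.97 at day 16. Against WT it was never called lower, and at day 12 it was higher by 0.63 ± 0.19 (limma, adjusted p = 0.0061). The line is therefore called KD-labelled throughout. Nothing in the labels says that the 3 arrays of a group came from separate cultures, so the spread behind the p-values may be technical.

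From day 8 on, the KD-labelled line had at least 6 of the 10 genes above both controls, and at day 4 it had 3. Counting each gene on each EB day as a pair, KD-labelled EBs were higher than SCR in 24 of 40 pairs and lower in 4. Against WT they were higher in 29 of 40 and lower in 3. Of all genes, 17.6% were above both controls at day 4, 23.1% at day 8, 24.1% at day 12 and 31.8% at day 16, and 22.6% to 39.8% were above SCR over these days. At day 4 the 3 of 10 is not far from that background. These shares take in dim genes, whereas all of the 10 but Ankrd37 had a mean above 6.21, the median over all genes. Fitted alone, the genes above that median gave 2868, 3399, 3528 and 3609 above SCR at days 4, 8, 12 and 16. The fit of all genes gave 4109, 5103, 5633 and 7233. A median splits the genes evenly, so the share above SCR was larger among brighter genes at days 4 to 12 and alike at day 16. Without Ankrd37, 4, 5, 7 and 6 of the members were above SCR in that fit. The share of brighter genes above both controls was not worked out. In ESCs none of the 10 genes was called against SCR. All calls are from limma with Benjamini-Hochberg adjusted p under 0.05 over 18193 genes, and differences are on the log2 scale, where 1 unit is a 2-fold difference.

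**Figure D1:**
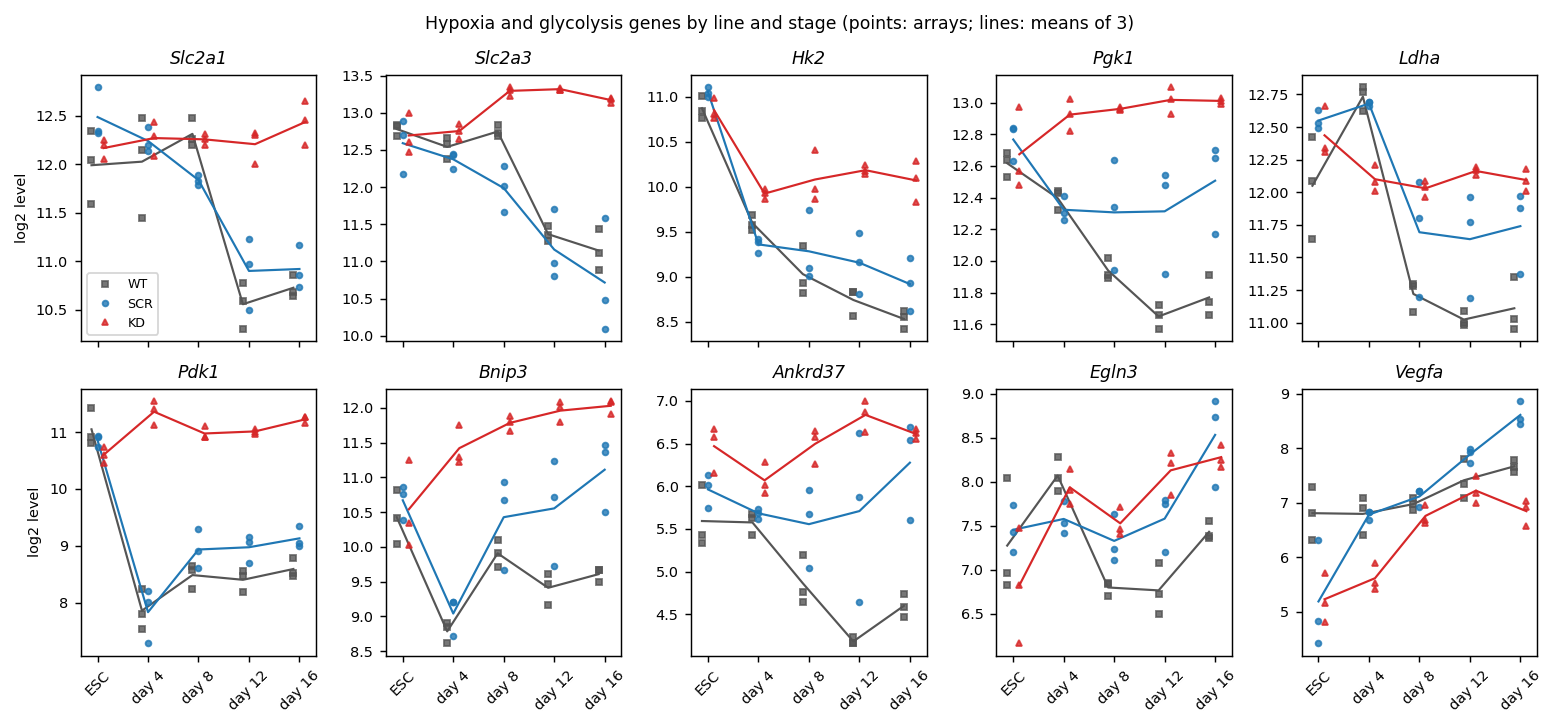
Level of each of the 10 genes (log2, y axis, own scale for each gene) by stage (x axis), with 1 point for each array and lines through the means of 3 arrays in WT, SCR and KD-labelled cells. The Pdk1 arrays of KD-labelled EBs sit between 10.91 and 11.55, above every SCR and WT EB array, whose highest value is 9.34.

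Pdk1, the kinase that switches off pyruvate dehydrogenase, showed the widest separation of the lines. In ESCs its arrays read 10.81, 11.43 and 10.91 in WT, 10.73, 10.93 and 10.91 in SCR, and 10.74, 10.6 and 10.46 in KD-labelled cells. At day 4 they read 7.8, 8.23 and 7.54 in WT, 7.28, 8.01 and 8.2 in SCR, and 11.55, 11.12 and 11.41 in KD-labelled EBs. In ESCs the KD-labelled arrays overlapped SCR and lay just below WT, and at day 4 the KD-labelled arrays lay above all control arrays by a wide gap. The difference from SCR at day 4 was 3.53 ± 0.19 (SE, n = 3 arrays a group), an 11.6-fold difference (limma, adjusted p = 1.2e-17), and the difference from WT was 3.5 ± 0.19. From day 8 to day 16 it stayed between 2.04 and 2.1 above SCR. In the controls Pdk1 fell from ESCs to day 4 by 3.19 in WT and by 3.03 in SCR, whereas in the KD-labelled line it rose by 0.76 ± 0.19 (limma, adjusted p = 0.0028). Both controls then regained part of it between days 4 and 8, SCR by 1.1 and WT by 0.63, each ± 0.19 (adjusted p = 1.1e-05 and 0.0072). Of the other 3 Pdk1 probe sets, 1 gave differences of 3.4 at day 4 and 2.14 at day 16, 1 gave 2.86 at day 4 but only 0.31 at day 16 (adjusted p = 0.16 over all probe sets), and the dimmest gave 0.95 and 0.82. With the mean over its probe sets in place of the brightest, the difference from SCR was 1.28 at day 12 and 1.34 at day 16.

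Bnip3, whose product sits on the mitochondrial outer membrane and takes part in mitophagy, followed a like course. At day 4 its arrays read 8.84, 8.9 and 8.61 in WT, 8.71, 9.21 and 9.2 in SCR, and 11.22, 11.29 and 11.75 in KD-labelled EBs. At day 16 they read 9.49, 9.66 and 9.67 in WT, 10.5, 11.36 and 11.47 in SCR, and 11.91, 12.08 and 12.1 in KD-labelled EBs. No KD-labelled array overlapped a control array on either day, but SCR had moved up towards the KD-labelled level by day 16. The difference from SCR was 2.38 ± 0.3 at day 4 and 0.92 ± 0.3 at day 16 (limma, adjusted p = 2e-08 and 0.0072). Without SCR replicate 1 of day 16, the lowest of its group, it was 0.62 and no longer called (adjusted p = 0.089). Against WT the difference at day 16 was 2.42 ± 0.3 (adjusted p = 8.9e-09). Within the KD-labelled line Bnip3 was above its ESC level on all 4 days, by 0.88 to 1.49.

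The 2 glucose transporters separated later than Pdk1 and Bnip3. Slc2a3, the high-affinity transporter GLUT3, read 12.66, 12.58 and 12.38 in WT, 12.24, 12.43 and 12.45 in SCR, and 12.65, 12.76 and 12.85 in KD-labelled EBs at day 4. At day 16 it read 11.11, 10.89 and 11.44 in WT, 11.58, 10.48 and 10.09 in SCR, and 13.18, 13.13 and 13.2 in KD-labelled EBs. The lines were close at day 4, and by day 16 all control arrays lay below all arrays of day 4 while all KD-labelled arrays lay above them. The difference from SCR rose from 0.38 ± 0.23 at day 4 (limma, adjusted p = 0.19) to 1.31 at day 8, 2.16 at day 12 and 2.45 ± 0.23 at day 16 (adjusted p = 8.8e-12). The other 3 Slc2a3 probe sets gave larger differences at day 16, of 3.08, 3.42 and 3.3. The probe set with the largest variance gave 2.95 at day 8 and 3.6 at day 12, and the mean over the probe sets gave 2.24 at day 8.

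Slc2a1, the broadly expressed transporter GLUT1, read 12.26, 12.2 and 12.48 in WT, 11.79, 11.89 and 11.83 in SCR, and 12.2, 12.26 and 12.31 in KD-labelled EBs at day 8. At day 12 it read 10.78, 10.59 and 10.3 in WT, 11.23, 10.5 and 10.97 in SCR, and 12.3, 12.0 and 12.32 in KD-labelled EBs. WT and KD-labelled EBs overlapped at day 8, and at day 12 all KD-labelled arrays were above all control arrays. Between these days WT fell by 1.76 ± 0.19 and SCR fell by 0.94 ± 0.19 (limma, adjusted p = 1.1e-08 and 0.00066), and the KD-labelled line differed by -0.05 ± 0.19 (adjusted p = 0.98). Against SCR the KD-labelled line was 1.31 ± 0.19 higher at day 12 and 1.52 ± 0.19 higher at day 16 (adjusted p = 3.8e-07 and 1.7e-08). Both other probe sets of Slc2a1 made the same calls as the brightest in every comparison of lines and stages.

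Hk2, the inducible hexokinase that traps glucose in the cell, was lower in EBs than in ESCs in every line, and least so in the KD-labelled line. Its arrays at day 16 read 8.56, 8.42 and 8.62 in WT, 8.62, 9.21 and 8.93 in SCR, and 10.1, 9.83 and 10.28 in KD-labelled EBs. The KD-labelled arrays stood above all 6 control arrays, and all were below the ESC arrays of the same line, which read 10.81, 10.76 and 10.98. The difference from SCR was 0.56 ± 0.17 at day 4 and 1.15 ± 0.17 at day 16 (limma, adjusted p = 0.0052 and 2e-07). At day 4 the difference from WT, 0.33 ± 0.17, was not called (adjusted p = 0.12). Between ESCs and day 16 Hk2 fell by 2.34 in WT, by 2.13 in SCR and by 0.78 in the KD-labelled line. The gap between KD-labelled and SCR cells in this change was tested directly and was 1.35 ± 0.23 (adjusted p = 1.1e-05).

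Pgk1, which makes ATP in the lower part of glycolysis, had smaller differences and a tight spread. At day 8 its arrays read 11.89, 12.02 and 11.91 in WT, 11.94, 12.64 and 12.34 in SCR, and 12.96, 12.97 and 12.95 in KD-labelled EBs. At day 16 they read 11.66, 11.74 and 11.91 in WT, 12.17, 12.7 and 12.65 in SCR, and 13.01, 12.99 and 13.03 in KD-labelled EBs. The KD-labelled arrays did not overlap the controls on either day, and the SCR mean lay between those of the other lines, with 1 SCR array inside the WT range at day 8. The difference from SCR was between 0.5 and 0.7 on the 4 days, each with an SE of 0.14 (limma, adjusted p = 0.0024 at day 16). Against WT it grew from 0.53 at day 4 to 1.37 at day 12.

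Ldha, the subunit of lactate dehydrogenase that favours lactate, went the other way at first. At day 4 it read 12.62, 12.81 and 12.77 in WT, 12.69, 12.69 and 12.66 in SCR, and 12.01, 12.08 and 12.21 in KD-labelled EBs. At day 12 it read 11, 10.98 and 11.09 in WT, 11.77, 11.19 and 11.96 in SCR, and 12.17, 12.19 and 12.13 in KD-labelled EBs. The KD-labelled arrays were below all control arrays at day 4 and above them at day 12. KD minus SCR was -0.58 ± 0.18 at day 4 and 0.52 ± 0.18 at day 12 (limma, adjusted p = 0.0071 and 0.012). The call at day 12 was lost without SCR replicate 2, the lowest SCR array (0.3, adjusted p = 0.17). At days 8 and 16 the differences of 0.34 and 0.35 were not called (adjusted p = 0.11 and 0.077), but without SCR replicate 2 of that day they were 0.53 and 0.47 and called (adjusted p = 0.017 and 0.037). Against WT the difference at day 12 was 1.14 ± 0.18 (adjusted p = 9.7e-07). Between days 4 and 8 Ldha fell by 1.51 in WT and fell by 0.99 in SCR, and the KD-labelled line differed by -0.07 ± 0.18 (adjusted p = 0.88).

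Ankrd37, a small ankyrin-repeat protein gene often used as a HIF target, was read by a dim probe set, and 45.1% of genes had a lower mean. At day 12 it read 4.23, 4.16 and 4.16 in WT, 6.62, 4.64 and 5.87 in SCR, and 6.64, 6.87 and 7.0 in KD-labelled EBs. WT was far below the KD-labelled arrays, and SCR spread over most of the gap between them. The SD was 1 in SCR and 0.18 in KD-labelled EBs at day 12, whereas limma's SE takes 1 spread for all groups. KD minus SCR was 0.94 ± 0.28 at day 8 and 1.13 ± 0.28 at day 12 (limma, adjusted p = 0.0051 and 0.00089). The first was lost without SCR replicate 1 of day 8 (0.68, adjusted p = 0.064), and the second was 0.59 without SCR replicate 2 of day 12 (adjusted p = 0.045). Without the first 8-day array of each line, whose cell type label names ESCs, the day 8 difference was 0.61 (adjusted p = 0.15). At day 16 the SCR and KD-labelled arrays overlapped, with a difference of 0.34 ± 0.28 (adjusted p = 0.29).

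Egln3, the hydroxylase that marks HIF for destruction and is itself a HIF target, was not called between KD-labelled and SCR cells at any stage. Its differences were -0.63 ± 0.26 in ESCs, 0.36 at day 4, 0.2 at day 8, 0.55 at day 12 and -0.25 at day 16, with limma adjusted p between 0.072 and 0.56. In ESCs its difference was -0.96 without KD-labelled replicate 3, and was then called (adjusted p = 0.0082). At day 12 it was 0.69 and called without KD-labelled replicate 1 (adjusted p = 0.045), and it was also called with arrays centred on their medians (0.61, adjusted p = 0.044) and in a fit of that day's arrays alone (0.55, adjusted p = 0.034). Against WT it was higher at day 8 (0.73), day 12 (1.37) and day 16 (0.85), each ± 0.26. The other, dimmer Egln3 probe set shared 8 calls with the brightest over all comparisons of lines and stages and missed 5. By the brightest, at day 16 the lines compared as follows. Egln3 read 7.38, 7.36 and 7.55 in WT, 7.94, 8.74 and 8.92 in SCR, and 8.25, 8.17 and 8.42 in KD-labelled EBs. SCR and KD-labelled arrays overlapped there, and both lay above WT.

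Vegfa, which encodes the growth factor that drives vessel formation, was lower in the KD-labelled line than in SCR at days 4, 12 and 16 by its brighter probe set. At day 16 it read 7.66, 7.57 and 7.78 in WT, 8.44, 8.53 and 8.87 in SCR, and 6.92, 6.58 and 7.04 in KD-labelled EBs, so that the 3 lines did not overlap. At day 4 it read 7.08, 6.9 and 6.41 in WT, 6.68, 6.83 and 6.84 in SCR, and 5.9, 5.53 and 5.42 in KD-labelled EBs. KD minus SCR was -1.17 ± 0.28 at day 4 and -1.77 ± 0.28 at day 16 (limma, adjusted p = 0.00081 and 1.4e-06). At day 12 it was -0.66 ± 0.28 (adjusted p = 0.045), and leaving out a single array ended this call in 5 of 6 cases, with adjusted p from 0.032 to 0.16. Those 5 arrays were SCR replicates 1, 2 and 3, and KD-labelled replicates 2 and 3. The other Vegfa probe set did not show these differences: it gave 0.14 ± 0.21 at day 4, 0.03 at day 12 and -0.09 ± 0.21 at day 16 (limma, adjusted p = 0.71, 0.92 and 0.72 over all probe sets). With the mean of both probe sets the difference was -0.52 at day 4, -0.31 at day 12 and -0.93 at day 16, with adjusted p = 0.072, 0.25 and 0.00066. The lower level of Vegfa therefore rests on 1 of 2 probe sets. Over all comparisons of lines and stages, the other probe set shared 4 calls with the brighter one and missed 12. In ESCs both SCR and KD-labelled cells were below WT at the brighter probe set, by -1.62 ± 0.28 and -1.58 ± 0.28, although an SCR array and a WT array both read 6.32.

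Taking the 10 genes by stage, the number called higher and lower in KD-labelled than in SCR cells was 0 and 0 in ESCs, 4 and 2 at day 4, 6 and 0 at day 8, 8 and 1 at day 12, and 6 and 1 at day 16. Over all genes, 12.3%, 22.6%, 28%, 31% and 39.8% were higher at these stages and 11.3%, 19.9%, 24.7%, 24.6% and 26.8% lower, so a call on any gene is common in this comparison. In ESCs 1 of the 10 genes had an unadjusted p under 0.05 in limma, and the fit of the ESC arrays alone called 0 as well. Without KD-labelled ESC replicate 3 the count was 1, for Egln3. The median difference of the 10 genes was -0.12 in ESCs, 0.38 at day 4, 0.73 at day 8, 1.08 at day 12 and 0.71 at day 16, beside medians over all genes between 0.03 and 0.17.

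Against WT the number called higher and lower was 1 and 1 in ESCs, 3 and 2 at day 4, 8 and 0 at day 8, 9 and 0 at day 12, and 9 and 1 at day 16. Of all genes, 8.66%, 19.2%, 26%, 27.1% and 34.6% were higher than in WT at these stages and 9.78%, 19.9%, 23.9%, 23.6% and 26.1% lower. The ESC count against WT, Ankrd37 higher and Vegfa lower, became 1 without WT replicate 1, WT replicate 3 or KD-labelled replicate 1. Both comparisons share the KD-labelled arrays. Pgk1, Pdk1 and Bnip3 were called higher against both controls on all 4 EB days. In ESCs no member was above or below both, where 5.84% of all genes were above and 6.28% below. At day 4 these were the only 3 of the 10 above both controls, against 17.6% of all genes, and Ldha and Vegfa were below both, against 16.8%. At day 8 Slc2a3, Hk2 and Ankrd37 joined them (6 of 10, against 23.1%), and at day 12 Slc2a1 and Ldha as well (8 of 10, against 24.1%). No member was below both at these days, against 21% and 19.8% of all genes. At day 16 the count was 6 of 10 against 31.8%, without Ldha and Ankrd37, and Vegfa was the member below both, against 23.1% of all genes.

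**Figure D2:**
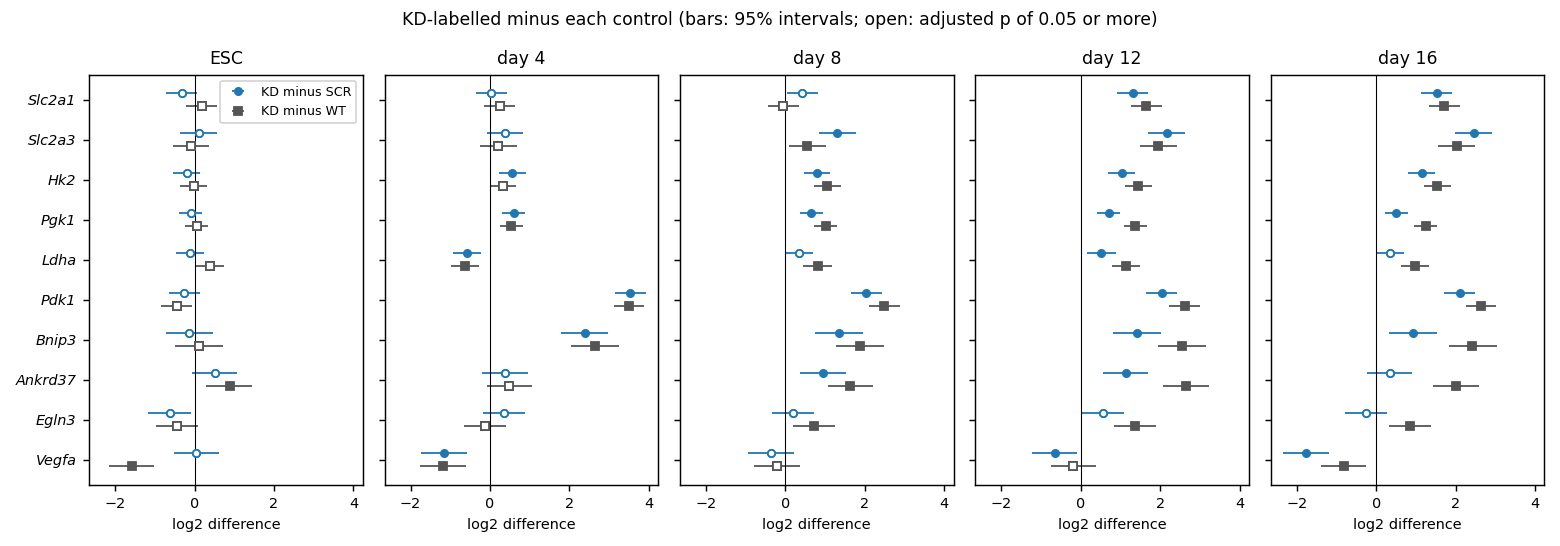
Difference of the KD-labelled line from SCR (circles) and from WT (squares) for each gene (y axis) on the log2 scale (x axis) at each stage, with 95% intervals as bars and open symbols where limma's adjusted p was 0.05 or more. In ESCs all symbols for KD minus SCR are open, at day 4 Pdk1 reaches 3.53, and at day 16 Slc2a3 reaches 2.45 and Vegfa -1.77.

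Whether the difference from SCR changed with stage was tested with limma's moderated F test over the 5 stages. It passed for 9 of the 10 genes, against 58.5% of all genes, and Ankrd37 was the exception (adjusted p = 0.27). Against WT it passed for all 10, where 57.6% of all genes passed. The change from ESCs to day 4 was largest for Pdk1, at 3.79 ± 0.27, and Bnip3, at 2.51 ± 0.42 (adjusted p = 9.3e-14 and 1.2e-05). The change from ESCs to day 16 was largest for Pdk1 and Slc2a3, both at 2.35, with an SE of 0.27 and 0.32. For Slc2a1 the change was 0.35 ± 0.27 at day 4 and 1.84 ± 0.27 at day 16 (adjusted p = 0.41 and 8.1e-07). At day 4 the change from the ESC stage was also called for Hk2 (0.76), Pgk1 (0.69), Egln3 (0.99) and Vegfa (-1.21), with adjusted p between 0.0081 and 0.042. For Slc2a3 (1.2 ± 0.32) and Slc2a1 (0.74 ± 0.27) it was called from day 8 (adjusted p = 0.0025 and 0.03).

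Within the lines, most calls against the ESC stage were downward in the controls and, but for Hk2, upward in the KD-labelled line. Over 40 pairs of a gene and an EB day, WT was lower than its ESCs in 24 and higher in 3. Of all genes, 41.7%, 56.6%, 60% and 66.2% were called in either direction from day 4 to day 16. Of those WT calls 51.4%, 45.5%, 44.6% and 42.4% were higher. With cyclic loess 55% of the WT calls at day 16 were higher, and the 10 genes had 8 lower and 1 higher. SCR was lower in 21 and higher in 5, where 42.5%, 58.2%, 66.6% and 71.8% of all genes were called either way. Of those SCR calls 48.4%, 44.7%, 41.3% and 40.5% were higher. The KD-labelled line was lower in 4, all of them Hk2, and higher in 16. Of all genes, 23.9%, 36.9%, 43.4% and 38.1% were called either way in this line. Of those calls 52.1%, 48.3%, 46.6% and 50% were higher. By day 16 WT had 8 of the 10 genes lower than in ESCs and 1 higher, SCR had 5 lower and 2 higher, and the KD-labelled line had 1 lower and 4 higher. Egln3 was among those above the ESC level in the KD-labelled line, by 1.12 at day 4 and 1.46 at day 16, and Vegfa by 1.62 at day 16. By its brighter probe set Vegfa rose most in SCR, by 1.59 at day 4 and 3.42 at day 16, from the ESC level that was below that of WT. The SCR ESC arrays had an SD of 1 for Vegfa. The count of genes called at day 8 against ESCs in the KD-labelled line was 5, and was 3 without its ESC replicate 1 or 2, or without its day 8 replicate 1 or 2.

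Between the 2 control lines few of the 10 genes were called up to day 8 and more at days 12 and 16. At day 4 none of the 10 was called, none had an unadjusted p under 0.05, and 1.93% of all genes were called, while the fit of that stage alone also called none. At day 8, where 1 was called, 6 of the 10 had an unadjusted p under 0.05 in limma. Their differences at day 8 ran from -0.76 to 0.69, with a median of 0.41 beside -0.02 over all genes. At day 12 SCR was higher in 6 of 10 (Pgk1, Ldha, Pdk1, Bnip3, Ankrd37 and Egln3), against 7.05% of all genes. At day 16 it was higher in 6 of 10 (Pgk1, Ldha, Bnip3, Ankrd37, Egln3, and Vegfa by its brighter probe set), against 3.86%. The largest of these was Ankrd37 at day 16, with 1.68 ± 0.28 (limma, adjusted p = 5.5e-05), followed by its day 12 difference of 1.53 and by Bnip3 at day 16 with 1.5 ± 0.3. These counts hang on single arrays. At day 12 the count was 3 without WT replicate 1 or SCR replicate 3 and 2 without SCR replicate 1, and at day 16 it was 3 without SCR replicate 3. In ESCs Vegfa was the member called, and 5.72% of all genes were lower, and the count was 3 without WT replicate 2. At day 8 Slc2a3 was lower in SCR by -0.76 ± 0.23 (adjusted p = 0.032), and 4.16% of all genes were lower. With same-numbered SCR and WT arrays paired by a replicate block within the stage, this call was lost (adjusted p = 0.098), as was that of Pdk1 at day 12 (0.57, adjusted p = 0.071). That count of 1 became 0 without any of the 3 WT arrays or SCR replicate 2 or 3, and 4 without SCR replicate 1.

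The SCR EB arrays varied together in these genes. The median SD of the 10 genes over 3 arrays was 0.34, 0.36 and 0.31 in SCR at days 8, 12 and 16, against 0.14, 0.17 and 0.12 in WT and 0.12, 0.12 and 0.1 in the KD-labelled line. For Slc2a3 at day 16 the SD was 0.77 in SCR and 0.04 in KD-labelled EBs. For each gene limma's SE takes 1 spread over all groups. The SEs and p-values of differences from SCR at these days can therefore be too small. SCR replicate 2 of day 12 was the lowest of its group for 9 of the 10 genes, with a median deviation from the group mean of -0.39. SCR replicate 1 of day 16 was lowest for 9 genes (-0.32), and SCR replicate 1 of day 8 for 8 genes (-0.27). The arrays of a group thus share their deviations across genes, and the 10 genes are not 10 independent readings of a line. KD-labelled ESC replicate 2 was likewise lowest for 9 genes (-0.21), and replicate 3 of that group highest for 8 (0.26).

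**Figure D3:**
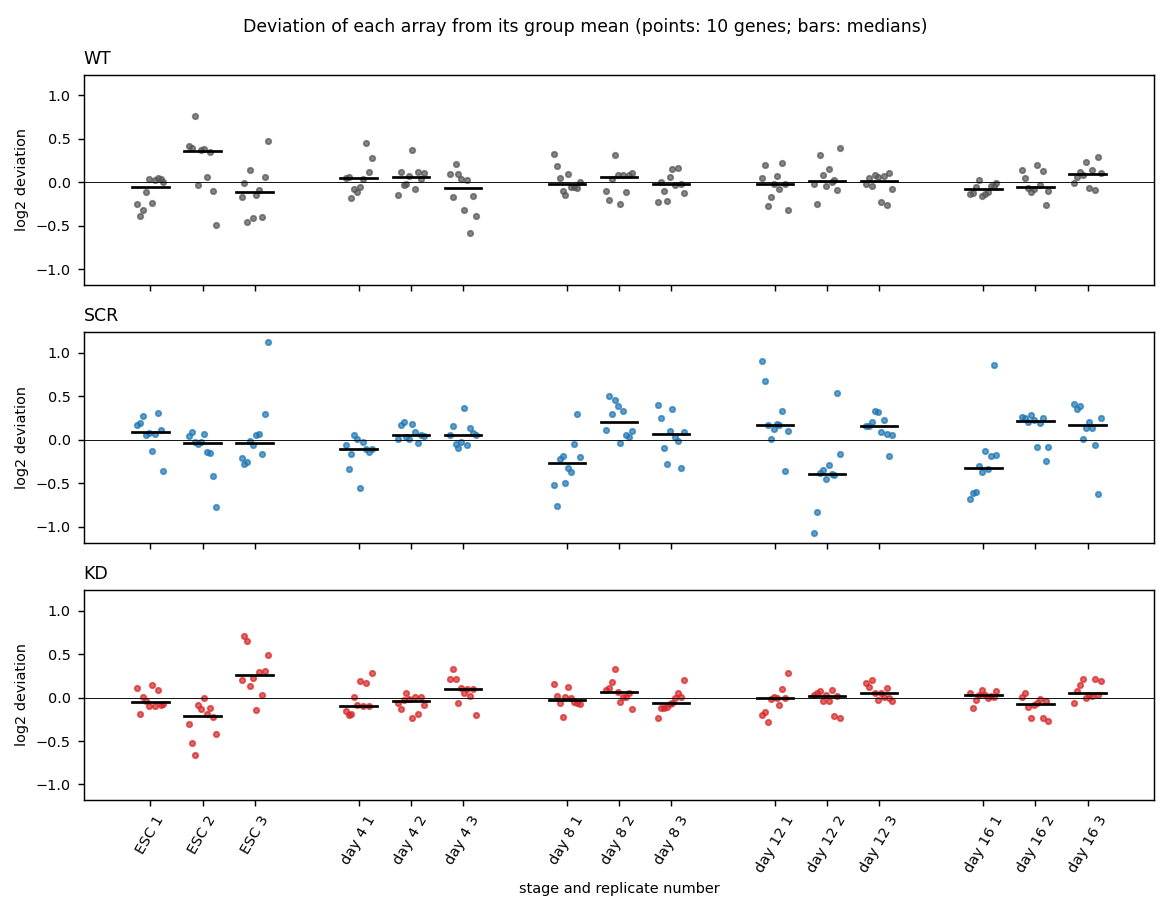
Deviation of each array from the mean of its group on the log2 scale (y axis) by stage and replicate number (x axis), with 1 point for each of the 10 genes and bars at their median, for WT, SCR and KD-labelled arrays. The bars of SCR replicate 1 of day 8, replicate 2 of day 12 and replicate 1 of day 16 lie at -0.27, -0.39 and -0.32.

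Markers of cell types moved with the lines as well, and their part in the differences above was not tested. All 10 pluripotency markers were higher in KD-labelled than in SCR EBs on every day, and the mean level of the list in single arrays was 10.26 to 10.57 in KD-labelled EBs, 4.84 to 5.95 in SCR EBs and 5.15 to 6.72 in WT EBs. In ESCs it was 10.34 to 11.31 over the 3 lines. All 8 cardiac muscle markers were lower at days 8 and 12 and 7 at day 16, and the list mean from day 8 on was 9.2 to 11.05 in SCR, 5.83 to 8.86 in WT and 5.18 to 5.37 in KD-labelled EBs. All 8 mesenchyme markers were lower from day 8 on, at 11.32 to 11.82 in SCR, 11.56 to 12.05 in WT and 4.42 to 5.61 in KD-labelled EBs. Of 8 endothelial markers 7 were lower at each of these days. RNA from whole EBs was measured, so a different share of cells of a type and a different level per cell cannot be told apart.

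Most other enzymes of glycolysis were higher in KD-labelled EBs as well. Of 13 measured, KD-labelled cells were higher than SCR in 4 in ESCs, 8 at day 4, 7 at day 8, 10 at day 12 and 10 at day 16, and lower in 0, 0, 2, 2 and 2. At day 16 that is 76.9% of the list higher and 15.4% lower, against 39.8% and 26.8% of all genes. The list's median was 0.4, 0.78, 0.79, 0.98 and 0.85 at the 5 stages. Pfkp, the platelet form of phosphofructokinase, read 6.14 ± 0.23 (SD) in WT, 6.78 ± 0.41 in SCR and 10.46 ± 0.16 in KD-labelled EBs at day 8, a difference from SCR of 3.68 (limma, adjusted p = 9.8e-17). Pfkm, the muscle form, was already higher in ESCs, by 1.4 (adjusted p = 1.4e-07), and by 1.8 at day 4. Ldhb, the subunit that favours pyruvate, was higher by 1.32 at day 4, when Ldha was lower, and by 1.75 at day 16. Pgam2, the muscle form of phosphoglycerate mutase, was lower by -2.47 at day 8, where SCR read 9.19 ± 1.45 and WT 6.16 ± 0.32, and against WT it was not called (adjusted p = 0.25).

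Carriers of glucose and lactate moved in both directions. Against SCR at day 16, 7 of 12 other transporters were higher and 4 lower in the KD-labelled line, and at day 12 the counts were 3 and 3. At day 16 that is 58.3% of the list higher and 33.3% lower, against 39.8% and 26.8% of all genes. The day 12 shares, 25% each way, stand against 31% and 24.6% of all genes. Slc16a1, the lactate carrier MCT1, was lower by -0.98 at day 4 and higher by 1.98 at day 16 (limma, adjusted p = 0.0014 and 1.5e-08). Ldha had the same signs on these days, but its 0.35 at day 16 was not called (limma, adjusted p = 0.077). Slc16a3, the carrier MCT4 that is a known HIF target, was higher by 1.32 at day 12 and 1.57 at day 16. Slc2a2, the liver and beta cell transporter GLUT2, went the other way. At day 16 it read 6.64 ± 0.65 in WT, 7.34 ± 0.61 in SCR and 3.22 ± 0.41 in KD-labelled EBs, a difference from SCR of -4.12 (adjusted p = 3.3e-17). Slc16a7 was lower by -2.5 at day 16.

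Around Pdk1, the pyruvate dehydrogenase complex and its regulators were mixed, with 5 of 10 higher and 2 lower at day 8 and 4 higher and 2 lower at day 16. At days 8 and 12 the share higher was 50%, against 28% and 31% of all genes. The share lower was 20% and 30%, against 24.7% and 24.6%. The day 16 shares of 40% and 20% are near the 39.8% and 26.8% of all genes. Pdk4, another of the inhibiting kinases, went with Pdk1: it was 2.18 higher at day 4 and 2.79 higher at day 16 (limma, adjusted p = 3.3e-12 and 2.2e-15), and already 0.93 higher in ESCs. Pdp1, the phosphatase that reactivates the complex, was lower at every stage, by -0.72 in ESCs, -1.82 at day 8 and -1.04 at day 16. The core subunits moved less. Dlat was higher by 0.54 at day 4 and 0.88 at day 16, and Pdha1 by 0.8 at day 8 and 0 at day 16.

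The genes of oxygen sensing were mixed. Of 12 measured, KD-labelled cells were higher than SCR in 3, 1, 3 and 3 and lower in 4, 6, 6 and 4 at days 4, 8, 12 and 16. The share lower was 50% at days 8 and 12, against 24.7% and 24.6% of all genes, and 33.3% at day 16, against 26.8%. Hif1a, the main oxygen-regulated subunit, stayed within 10.54 and 11.53 in all group means, and KD minus SCR was -0.41 in ESCs, -0.02 at day 4, -0.42 at day 8, -0.3 at day 12 and -0.14 at day 16. Its protein is controlled mainly by stability, which the arrays do not read. Vhl, the part of the ubiquitin ligase that binds hydroxylated HIF, was lower by -0.56 at day 4 and by -1.06 to -1.12 from day 8 on (limma, adjusted p = 2.9e-12 at day 12). Egln1, the main HIF hydroxylase, was lower by -0.9 at day 4 and -1.56 at day 8. Arnt, the partner of the alpha subunits, was higher by 0.76 at day 4 and 0.7 at day 16, and its relative Arnt2 was lower at every stage, by -2.4 at day 16. Epas1, the HIF-2 alpha gene, was lower by -0.86 at day 4 and higher by 1.52 at day 12.

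Among 24 other genes known as HIF targets, the count higher and lower against SCR was 5 and 2 in ESCs, 10 and 2 at day 4, 10 and 7 at day 8, 11 and 3 at day 12, and 6 and 6 at day 16. The share higher was 41.7% at day 4, against 22.6% of all genes, and 45.8% at day 12, against 31%. At day 16 it was 25%, below the 39.8% of all genes. Against WT at day 16, 10 of the 24 were higher and 2 lower, beside 34.6% and 26.1% of all genes. SCR was itself above WT in 8 and below it in 2 that day, where 3.86% of all genes were above. The share lower, 29.2% at day 8 and 25% at day 16, was near the 24.7% and 26.8% of all genes. Ak4, a mitochondrial adenylate kinase, was higher at every stage, by 2.29 in ESCs and 3.67 at day 8 (limma, adjusted p = 1.7e-11 and 2.5e-18). Bhlhe40, a transcriptional repressor, was higher by 3.27 at day 4 and differed by 0.34 at day 12 (adjusted p = 0.23). Car12, a carbonic anhydrase, was higher by 1.3 at day 4 and 2.4 at day 12. Lox, the collagen crosslinking enzyme, was lower by -4.5 at day 12 and -5.47 at day 16, where it read 9.94 ± 0.36 in WT, 9.63 ± 0.07 in SCR and 4.15 ± 0.13 in KD-labelled EBs. Lox is also made by mesenchyme, whose markers were lower in the same EBs, and the part of that in its level was not tested.

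Of 9 other ligands and receptors of the VEGF family, KD-labelled EBs were lower than SCR in 5 at day 4, 6 at day 8, 7 at day 12 and 7 at day 16, and higher in 1, 1, 1 and 2. At day 16 77.8% of the list was lower, against 26.8% of all genes. Against WT they were lower in 5, 6, 4 and 5 of the 9 on these days and higher in 1, 0, 1 and 2. Of all genes, 19.9%, 23.9%, 23.6% and 26.1% were lower than in WT. SCR was itself above WT in 4 at day 12 and 5 at day 16, where 7.05% and 3.86% of all genes were. Nrp1, a co-receptor, was 4.96 ± 0.38 in KD-labelled EBs at day 4 against 11.58 ± 0.13 in SCR and 11.28 ± 0.32 in WT, a difference from SCR of -6.62 (limma, adjusted p = 4.8e-26). Kdr, the main receptor of VEGF-A and a mark of early mesoderm, was lower by -4.79 at day 4 and -2.73 at day 16. Vegfc was lower by -2.72 at day 8. Flt1, the decoy receptor, was lower by -1.81 at day 4 and higher by 0.8 at day 12. The endothelial markers were lower from day 8 on in the same EBs, and at day 4 none of the 8 was lower and 3 were higher.

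**Figure D4:**
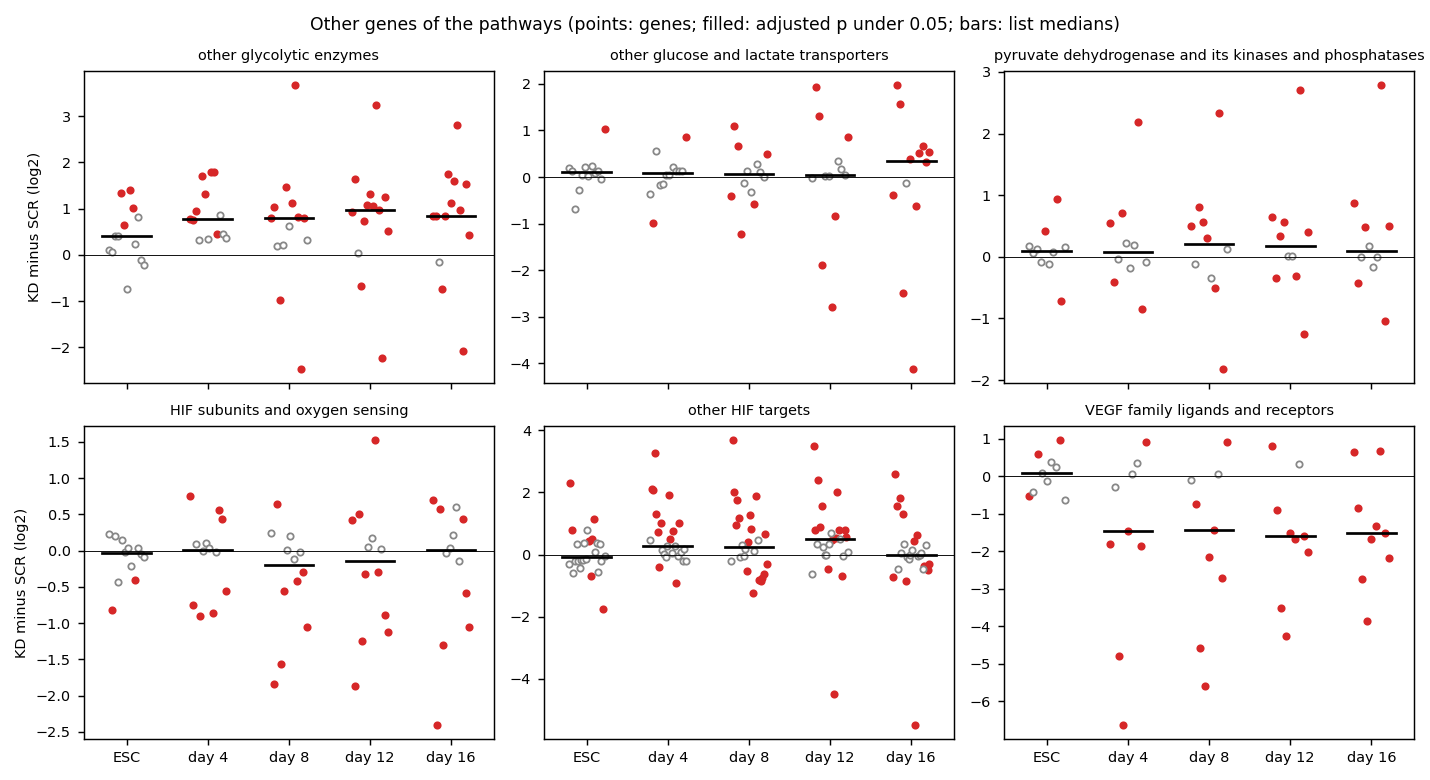
Difference of KD-labelled from SCR cells on the log2 scale (y axis) for each measured gene of 6 other lists by stage (x axis), filled where limma's adjusted p was under 0.05, with bars at the list medians. The bars of the other glycolytic enzymes lie at 0.4 to 0.98 and those of the VEGF family from day 4 on at -1.43 to -1.59.

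Likeness between genes is given as a description, over the means of 15 groups that share lines and stages. Of the 45 pairs among the 10 genes, 24 had a Pearson r above 0.5 and 8 had one below 0, each of the 8 with Vegfa. The highest were Pgk1 with Ankrd37, at 0.94, and Slc2a1 with Slc2a3, at 0.9. The lowest was Hk2 with Vegfa, at -0.75. Vegfa had a positive r with Egln3 alone, at 0.3. Each r of Vegfa comes from its brighter probe set, with which the other probe set shared 4 calls and missed 12. Among 9037 genes whose group means span at least 1 log2 unit, the most like Pgk1 were the aldolases Aldoa (0.963) and Aldoc (0.942), also enzymes of glycolysis. The most like Pdk1 were Usp28 (0.991) and Cbfa2t2 (0.984), and the most like Hk2 were Sin3a (0.981) and Nf2 (0.975). For Slc2a3 they were Arhgap45 (0.965) and Dnah1 (0.952), for Slc2a1 Atf7ip2 and Dnah1 (both 0.921), and for Ldha Otud4 (0.947) and Tmem243 (0.931). Bnip3 was most like Hspb2 and Ica1 (both 0.908), and Ankrd37 most like Pgk1 (0.939) and Aldoc (0.902). Vegfa was most like Pfkfb2 (0.944) and Tmem87b (0.925), and Egln3, most like Unc13b (0.845) and Tcf24 (0.786), had the weakest match of the 10.

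**Figure D5:**
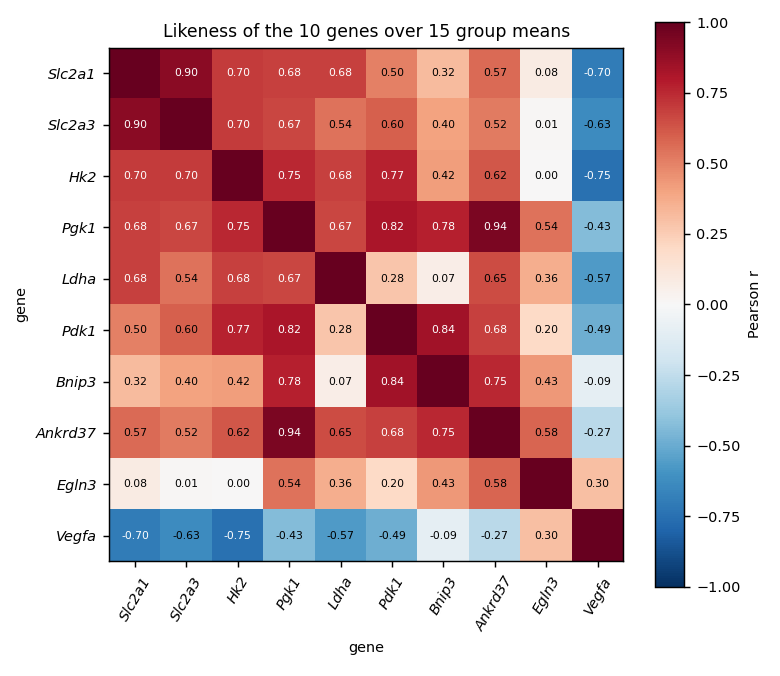
Pearson r between each pair of the 10 genes over the means of 15 groups of line and stage (colour, from -1 to 1, with the value printed in each cell). The pairs of Vegfa, read by its brighter probe set, are below 0 except with Egln3, where r is 0.3, and Pgk1 with Ankrd37 reaches 0.94.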

How the data were processed

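RNA levels were read by Affymetrix mouse arrays. The deposited values are log2 signals to 2 decimals, and the submitters' processing notes name Affymetrix Expression Console, Partek 6.6 and RMA without a role or order; the raw scans were not used. Values ran from 1.82 to 14.26, array medians from 5.02 to 5.18, and the correlation of arrays within a group from 0.9888 to 0.9961. With 3 arrays to a group, their number sets the precision.

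Groups follow the sample titles. In every line the 8-day array numbered 1 has the ESC tag in its cell type label, and it was kept at day 8. Replicate numbers come from the order of chips in the source names. The titles number the SCR arrays differently from the WT and KD-labelled arrays, so same-numbered refers to the source names alone. Same-numbered arrays of 2 lines were checked for shared deviations from their group means. All 3 pairs correlated above 0.1, before rounding, in 3 of 15 comparisons, SCR with WT in ESCs (0.23 to 0.48), at day 8 (0.27 to 0.37) and at day 12 (0.1 to 0.3), and the numbers were taken to pair the arrays there; no comparison with the KD-labelled line met this (-0.3 to 0.39).

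Of 45037 probe sets, 34945 carried 1 gene symbol, 932 several and 9160 none, and the last 2 kinds were not tested; symbols were updated through the RefSeq table of GRCm38.p6, where 204 probe sets were absent and kept theirs. The brightest probe set stood for each of 18193 genes, with no filter on level. A mean per group was estimated from all 45 arrays with limma 3.58.1 in R 4.3.3 (30 residual degrees of freedom), with Benjamini-Hochberg adjustment over all genes for each comparison and calls at adjusted p under 0.05. A moderated F test asked whether a difference between lines changed with stage. The fit was tested on simulated data. In the text KD minus SCR and the like are differences of log2 means, with limma's standard error, which takes 1 spread for a gene over all groups.

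The 10 genes, the other lists and the rule for named genes were chosen with earlier results of these data known. The rule names the 10 genes, Strip2, up to 4 called genes of each list with the largest difference from SCR at any stage (any gene of the oxygen sensing and VEGF lists), and for each of the 10 the 2 genes with the highest correlation over group means. Gpi1, Gapdh, Eno1 and Bnip3l were among the listed genes that are not analysed here. Marker lists for blood, endoderm and neural cells were measured too: on EB days KD-labelled array means were 4.27 to 4.7, 6.28 to 8.53 and 4.67 to 5.5, against 4.15 to 9.67, 6.4 to 9.95 and 4.68 to 8.19 in SCR. Alternatives covered scaling, the probe set, dim genes, the arrays in the fit, the prior, the replicate block (over all arrays and, added after seeing the data, within the stage for SCR and WT), the first 8-day arrays and each array left out.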

Additional observations from a re-analysis of the deposited data

Results flagged for a closer look

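For these genes the difference between KD-labelled and control cells was not the same at the 5 stages, by limma's moderated F test with adjustment over all genes. Against SCR the adjusted p was 1e-12 for Pdk1, 4.1e-08 for Slc2a3, 4.6e-07 for Slc2a1, 4.3e-05 for Hk2, 1e-04 for Bnip3, 0.0014 for Ldha, 0.0018 for Vegfa, 0.0049 for Pgk1 and 0.033 for Egln3. Against WT, with the same KD-labelled arrays, it was 5.7e-14 for Pdk1, 8.7e-08 for Slc2a1, 1.2e-07 for Slc2a3, 3.8e-07 for Hk2, 7e-07 for Ldha, 2e-06 for Pgk1, 8.4e-06 for Bnip3, 9.8e-05 for Ankrd37, 0.00026 for Egln3 and 0.0095 for Vegfa. Over all genes 58.5% passed against SCR and 57.6% against WT.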

How the results depend on the processing

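No called value reversed. Of the differences between KD-labelled and SCR cells for the 10 genes at 5 stages, 50 kept their side of the threshold with cyclic loess, with a trended prior and with the replicate block, 49 with the most variable probe set, 48 without the first 8-day arrays, 47 with arrays centred and 47 with the mean of the probe sets. With the arrays of a stage alone 45 kept theirs, and 5 were then called: Slc2a3 and Ankrd37 at day 4 (adjusted p = 0.016 and 0.019), Slc2a1 and Vegfa at day 8 (0.005 and 0.036) and Egln3 at day 12 (0.034). With dim genes left out, Ankrd37 could not be fitted and 45 of the remaining kept theirs. Without single arrays 288 kept theirs, 8 lost a call and 4 gained one. The cause of these changes was not tested.

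The replicate block over all arrays left every count of the 10 genes as it was (0, 6, 6, 9 and 7 against SCR from ESCs to day 16). With the number as a block within each stage, fitted to SCR and WT arrays and chosen after seeing the data, SCR minus WT went from 1 to 0 at day 8 and from 6 to 5 at day 12, and its other 3 counts stayed as they were. The counts that moved by over 1.5 times were these. Genes called at day 16 against ESCs in the KD-labelled line went from 5 to 8 with that line's arrays alone, and at day 8 from 5 to 3 without the first 8-day arrays. KD minus WT in ESCs went from 2 to 1 without dim genes. SCR minus WT at day 8 went from 1 to 2 with the mean of the probe sets, the most variable probe set or that stage's arrays alone, and to 4 without the first 8-day arrays. SCR minus WT in ESCs went from 1 to 2 without dim genes or the first 8-day arrays, and to 0 with that stage alone. Leaving out single arrays gave 1 to 3 for KD minus WT in ESCs and for SCR minus WT in ESCs, 0 to 4 for SCR minus WT at day 8, 2 to 7 at day 12 and 3 to 7 at day 16, 0 to 1 for KD minus SCR in ESCs, and 3 to 6 for the KD-labelled line at day 8 against ESCs.

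Over all genes, leaving out dim genes lowered KD minus SCR from 10115 to 6507 calls at day 12 and from 12117 to 6674 at day 16, KD minus WT at day 16 from 11053 to 6472, and SCR minus WT at day 16 from 1476 to 572. Against ESCs it lowered WT from 10911 to 7002 at day 12 and from 12052 to 6974 at day 16, and SCR from 10597 to 6837, 12116 to 6979 and 13065 to 7088 at days 8, 12 and 16. With dim genes left out fewer genes were tested, so these lower counts do not show that a smaller share of genes was called. A stage's arrays alone lowered KD minus WT in ESCs from 3355 to 1801, SCR minus WT in ESCs from 1847 to 293 and at day 4 from 352 to 199. Cyclic loess moved the median of all genes by -0.12 for KD minus SCR and by -0.11 for KD minus WT at day 16, and by 0.12 to 0.16 for WT and SCR at days 12 and 16 against ESCs. With it, the share of calls that were higher went from 42.4% to 55% for WT at day 16, from 41.3% to 52.2% for SCR at day 12 and from 40.5% to 52.5% for SCR at day 16. Centring moved the last median by -0.11.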
